A study of Mus musculus with 3 samples.

Results

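The genes described here are the G1 cyclins Ccnd2, Ccnd3, Ccne1 and Ccne2, the kinases Cdk2, Cdk4 and Cdk6 that they activate, and the inhibitors Cdkn1a, Cdkn1b and Cdkn2c. They were chosen by name, and each of the 10 matched 1 gene among the 50600 in the deposited tables. Their levels were read in 3 RNA libraries of T-helper 1 (Th1) cells, the interferon gamma making fate of CD4 T cells, from the mouse strain C57BL/6NJ. The libraries form 1 group, carry biological replicate numbers 1, 2 and 3 and share 1 donor record. The labels give neither age nor sex and call the RNA total, while the linked protocol is named for polyadenylated RNA, and the file headers place the sorted cells at 72 hours. There was therefore no second condition, and what follows sets genes against each other within libraries and libraries against each other.

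D-type cyclins respond to growth signals. They bind Cdk4 and Cdk6, and these complexes begin the phosphorylation of the retinoblastoma protein. E-type cyclins then bind Cdk2, and the E2F factors released from the retinoblastoma protein drive the genes of S phase. Inhibitors of the INK4 family, such as Cdkn2c, bind Cdk4 and Cdk6 alone, while those of the CIP and KIP family, Cdkn1a and Cdkn1b, bind cyclin-kinase complexes. Activated T cells leave quiescence through this circuit and divide rapidly.

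The libraries held 4482916, 266790 and 3733531 counts in replicates 1, 2 and 3, so replicate 2 was far shallower than the others. Among markers of the labelled cell, Cd4 had 174 ± 53.5 TPM (a share of the library's transcripts, scaled by gene length), Ifng 604 ± 252 and Tbx21 70.5 ± 22.1 (SD, n = 3 each), and Cd3e, a chain of the T-cell receptor complex that has an opposite-strand overlap, had 34.2, 1.90 and 18.9 TPM. Of 20 markers of other cell types, 18 were below 1 TPM and 14 had 0 counts, and their summed level was 11.4, 10.6 and 15.1 TPM in replicates 1, 2 and 3. Cd79a, a B-cell receptor chain, led them at 8.23 ± 4.00 TPM, while the B-cell gene Ms4a1 had 0 counts. Cd79a differed between libraries, with 3.61, 10.6 and 10.4 TPM in replicates 1, 2 and 3. The other marker that reached 1 TPM was Cd8b1, of CD8 T cells, at 2.28 ± 2.26 TPM from 14, 0 and 7 counts, while Cd8a had 0 counts. In bulk RNA a lower share of cells with a transcript and less transcript per cell cannot be told apart. A count was made when the first read of a fragment lay on the strand of the gene. Whether this setting matches the read orientation of the library kit is not stated in the labels or headers and was not tested, so each level here, of overlapped genes and others, is that of the fragments counted for a gene. Of the G1 genes, 6 shared exon bases with a gene on the other strand (Ccnd2, Ccnd3, Ccne2, Cdk2, Cdk4 and Cdk6) and 4 did not (Ccne1, Cdkn1a, Cdkn1b and Cdkn2c). Genes with such an overlap, here called overlapped, made up 16.2% of genes and took 51.7% of the counts of replicate 1, 55.1% of replicate 2 and 66.5% of replicate 3.

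All 10 genes reached a mean of 1 TPM, and 9 reached 10 TPM. They spanned from Cdk4 at 455 ± 23.7 TPM to Cdk2 at 9.76 ± 5.50 TPM (SD, n = 3 each), with a median of 50.6 TPM. The median over the 10408 protein-coding genes that reached 1 TPM was 12.8 TPM, and 6 of the 10 G1 genes lay above it. Cdk4 exceeded 98.5% of those coding genes, Cdkn1a 96.5%, and Cdk2 42.2%.

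**Figure D1:**
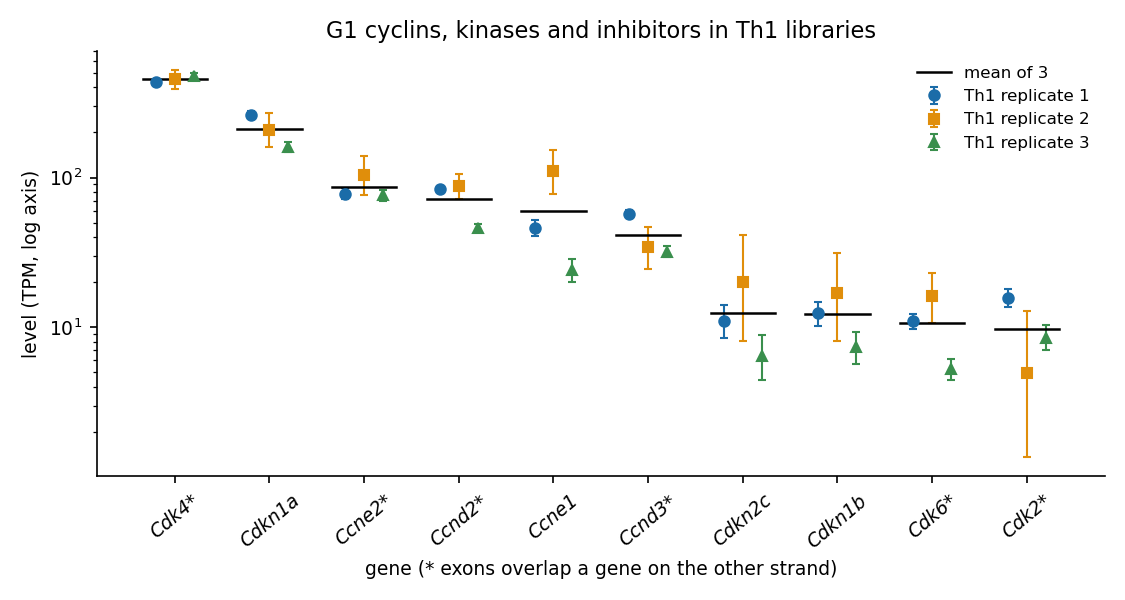
Level of each G1 gene in TPM on a log axis, with genes ordered by their mean (black line), 1 point per Th1 library, and bars for the 95% Poisson interval of its count. Cdk4 and Cdkn1a stood above the rest in each library, 4 genes lay near 10 TPM, and the bars of replicate 2 were the widest.

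The kinases differed widely in level. Cdk4 (chr10:127063534-127067920, plus strand, GRCm38), the kinase partner of D-type cyclins, had 433, 453 and 480 TPM in replicates 1, 2 and 3, from 2939, 190 and 3174 counts. It was the highest of the 10 genes in each library, and its SD was 5.20% of its mean. This small spread depended on the scale. With TPM set over genes without overlap Cdk4 had 1103, 1224 and 1922 in replicates 1, 2 and 3. Cdk6 (chr5:3341485-3531008, plus strand), which shares the D-type cyclins with Cdk4, had 10.9, 16.0 and 5.23 TPM from 320, 29 and 149 counts. It was lowest in replicate 3, where Cdk4 was highest. Within a library Cdk4 was 39.5, 28.2 and 91.7 times Cdk6 per length, and the exact 95% counting intervals of the 3 folds ran from 35.2 to 44.5, from 19.0 to 43.3 and from 77.8 to 109. The mean log2 ratio was 5.40 ± 0.79 (SD, n = 3). Here and below log2 ratios are of TPM + 1, which shrinks the ratio of low genes, while folds have nothing added.

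Cdk2 (chr10:128697939-128705031, minus strand), the kinase of E-type cyclins, was the lowest of the 10 by its mean. It had 15.8, 4.98 and 8.53 TPM, from 205, 4 and 108 counts. The 4 counts of replicate 2 set an interval from 1.36 to 12.7 TPM there. Cdk4 was 27.4, 90.9 and 56.3 times Cdk2, a mean log2 ratio of 5.53 ± 0.78 (SD, n = 3). In replicates 1 and 3 Cdk2 ranked seventh of the 10, above Cdkn1b, Cdkn2c and Cdk6, and only in replicate 2 was it last. Cdk6 against Cdk2 had a mean log2 ratio of 0.14 ± 1.19 with Cdk6 higher in 1 of 3 libraries, so these kinases did not differ beyond their spread.

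The 250 bases before the annotated starts of Cdk4 and Cdk2 are shown because these are the highest and the lowest kinase here by their means. Cdk2 and Cdk6 did not differ beyond their spread, so the place of Cdk2 as the lowest is not firm. The sequences are from RefSeq on GRCm38.p6, at chr10:127063285-127063534 on the plus strand for Cdk4 and chr10:128705052-128705301 on the minus strand for Cdk2, each written 5′ to 3′. In Cdk4 the capitals mark the E-box CACGTG, the word that MYC with its partner MAX is known to bind, and in Cdk2 they mark an E2F-type word (TTTCCCGC, here on the opposite strand).
Cdk4: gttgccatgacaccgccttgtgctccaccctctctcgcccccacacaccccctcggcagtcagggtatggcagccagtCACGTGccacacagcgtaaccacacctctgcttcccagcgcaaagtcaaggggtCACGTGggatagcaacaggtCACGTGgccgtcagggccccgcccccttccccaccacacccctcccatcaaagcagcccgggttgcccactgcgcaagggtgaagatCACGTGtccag
Cdk2: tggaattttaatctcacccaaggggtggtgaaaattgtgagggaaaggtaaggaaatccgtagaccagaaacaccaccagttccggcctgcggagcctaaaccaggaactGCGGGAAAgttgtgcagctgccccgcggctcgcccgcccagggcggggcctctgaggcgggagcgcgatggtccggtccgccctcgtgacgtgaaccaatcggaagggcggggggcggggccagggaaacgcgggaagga
The Cdk4 window held 4 E-boxes, with first bases 172, 118, 98 and 11 bases before the start. At least 1 E-box was in 6.02% of the 32851 windows of the same length searched, and 4 or more were in 7 of them (0.0213%). The E-box was searched after the Cdk4 sequence had been seen. The minimum of 4 is the number in the Cdk4 window itself, so the share of 0.0213% is a description and not a test. The E2F-type words TTTCCCGC, TTTCGCGC, TTTGGCGC and TTTGCCGC, on either strand, occurred in 1.86% of the windows. Among the 8 G1 genes with an entry, all but Ccnd2 and Ccne2, only that of Cdk2 held 1. Of these 8, Cdk6 held 1 E-box. The GC box GGGCGG, on either strand, was in 32.7% of the windows and in at least 1 window of 7 of these 8 genes. A matching word is a description of the sequence and does not show that a factor bound it. The lack of an exact word does not show that a site is absent. Myc itself had 183 ± 60.1 TPM (SD, n = 3), from 1431, 54 and 789 counts.

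The D-type cyclins were both in the middle of the order. Ccnd2 (chr6:127125162-127152193, minus strand) had 83.8, 87.2 and 46.1 TPM in replicates 1, 2 and 3, from 1648, 106 and 883 counts, a mean of 72.3 ± 22.8. Ccnd3 (chr17:47505051-47599691, plus strand) had 56.8, 34.4 and 32.0 TPM from 1043, 39 and 572 counts, a mean of 41.1 ± 13.7. Ccnd2 was higher than Ccnd3 in 3 of 3 libraries, by 1.47, 2.53 and 1.44 times per length and by a mean log2 ratio of 0.79 ± 0.45 (SD, n = 3). The difference was larger than the spread between libraries, and no counting interval of the 3 folds reached 1, with lower bounds of 1.36, 1.74 and 1.29. The remaining D-type cyclin, Ccnd1 (overlapped), had 28, 1 and 40 counts and 2.89 ± 1.26 TPM.

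In TPM, which divides by gene length, the E-type cyclins lay in the same range of levels as the D-type ones. Ccne2 (chr4:11191351-11204779, plus strand) had 78.0, 104 and 76.2 TPM, from 570, 47 and 542 counts. Ccne1 (chr7:38097984-38107534, minus strand) had 46.0, 110 and 24.0 TPM, from 256, 38 and 130 counts. This was the widest relative spread of the 10 genes, with an SD of 74.7% of the mean of 60.2 TPM, which was 35.0 TPM without replicate 2. Ccne1 was lower than Ccne2 in replicates 1 and 3 (0.590 and 0.315 times) and near it in replicate 2 (1.06 times, interval 0.674 to 1.66). The mean log2 ratio of Ccne1 over Ccne2 was -0.76 ± 0.86, less than its spread. It was -1.19 without replicate 2 and -0.33 without replicate 3. The summed D-type cyclins had 141, 122 and 78.1 TPM and the summed E-type cyclins 124, 215 and 100.1 TPM. Their mean log2 ratio, D over E, was -0.33 ± 0.50 with D higher in 1 of 3 libraries, so no order between these sums held beyond the spread. It was -0.58 without replicate 1 and -0.087 without replicate 2. For counts without length scaling it turned round, to 1.19.

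Among the inhibitors Cdkn1a stood apart. This gene (chr17:29090979-29100722, plus strand), which encodes p21 and is a target of p53, had 263, 209 and 160 TPM in replicates 1, 2 and 3, from 1222, 60 and 726 counts. It was the second highest of the 10 genes in each library. Cdkn1b (chr6:134920401-134925513, plus strand), which encodes p27 and is known to be high in quiescent lymphocytes, had 12.4, 17.0 and 7.34 TPM from 118, 10 and 68 counts. Within a library Cdkn1a was 21.2, 12.3 and 21.9 times Cdkn1b, a mean log2 ratio of 4.04 ± 0.43 (SD, n = 3), with counting intervals from 17.5 to 25.8, 6.24 to 26.9 and 17.0 to 28.5. Neither gene was overlapped.

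Cdkn2c (chr4:109660876-109667189, minus strand), which encodes the INK4 protein p18, had 11.0, 20.2 and 6.40 TPM, from 62, 7 and 35 counts. It could not be separated from Cdkn1b, with a mean log2 ratio of Cdkn1b over Cdkn2c of 0.031 ± 0.23, and the counting interval of the fold included 1 in each library. The 3 inhibitors together were below the 3 kinases together in 3 of 3 libraries, by a mean log2 ratio of -1.04 ± 0.42. Cdk4 carried most of the kinase sum and Cdkn1a most of the inhibitor sum.

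**Figure D2:**
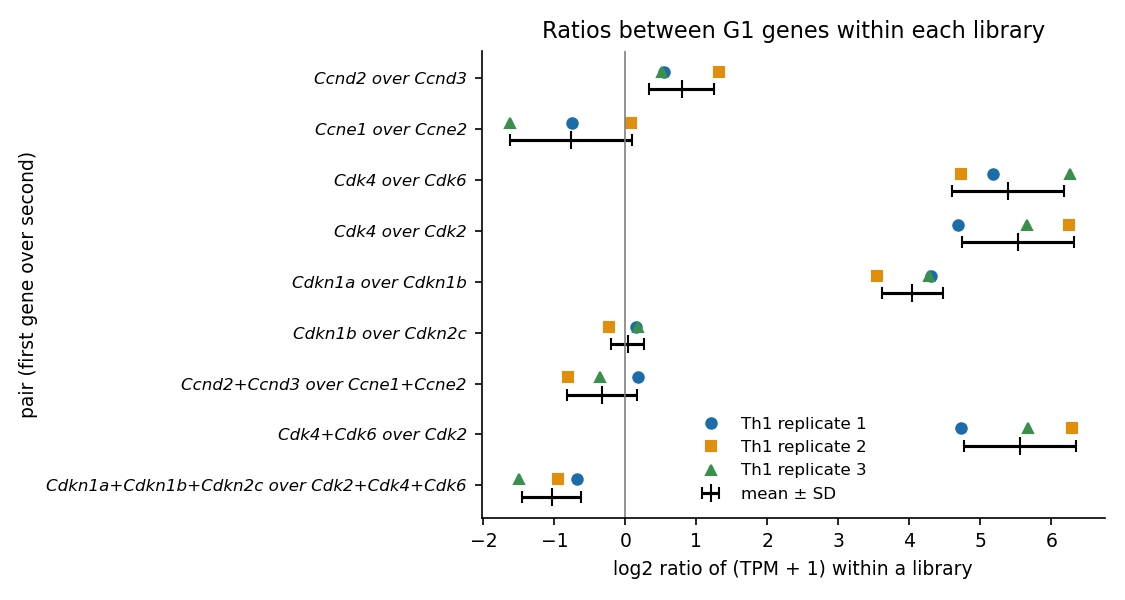
Log2 ratio of (TPM + 1) between G1 genes, or sums of them, within each Th1 library (coloured points), with the mean and SD in black below. Cdk4 over Cdk6 and Cdk2, and Cdkn1a over Cdkn1b, lie far from 0 in all 3 libraries, while the points of Ccne1 over Ccne2, of Cdkn1b over Cdkn2c and of D over E cyclins fall on both sides of 0.

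Along the whole order, 4 of the 9 neighbouring pairs differed in the same direction in 3 of 3 libraries by a mean larger than the SD. These were Cdk4 over Cdkn1a (log2 ratio 1.13 ± 0.43), Cdkn1a over Ccne2 (1.27 ± 0.41), Ccnd3 over Cdkn2c (1.72 ± 0.85) and Cdkn1b over Cdk6 (0.22 ± 0.18). For Cdkn1b and Cdk6 the Poisson intervals of the levels overlapped in each library. The order was not fixed between Ccne2 and Ccnd2, Ccnd2 and Ccne1, or Ccne1 and Ccnd3. Nor was it fixed between Cdkn2c and Cdkn1b or between Cdk6 and Cdk2. Ccnd2 and Ccnd3 are not neighbours in this order, and Ccnd2 was the higher in 3 of 3 libraries, as given above. Ccne2 was likewise above Ccnd3 in each library, at 78.0, 104 and 76.2 TPM against 56.8, 34.4 and 32.0 TPM. An exact sign-flip test on 3 libraries cannot go below 0.25, so no p-value is given for these ratios.

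The genes on the other strand of the overlapped G1 genes were counted as well. Ccnd2 shares 372 exon bases with the noncoding gene Gm43126, which are 86.7% of the exon bases of Gm43126 and 3.95% of those of Ccnd2. Against the 83.8, 87.2 and 46.1 TPM of Ccnd2, Gm43126 had 3036, 3013 and 3594 TPM in replicates 1, 2 and 3, from 2724, 167 and 3140 counts. Gm43126 thus stood 36.3, 34.6 and 78.0 times above Ccnd2 per length. A further noncoding gene opposite to Ccnd2, 9330179D12Rik, had 32, 0 and 34 counts.

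Cdk2 shares 34 bases with Pmel, which encodes a structural protein of pigment granules in melanocytes. Pmel had 98.5, 84.4 and 117 TPM, 6.25, 17.0 and 13.7 times the level of Cdk2 in replicates 1, 2 and 3. Ccnd3 shares 361 bases with Bysl, a ribosome biogenesis factor, which had 613, 831 and 898 TPM, 10.8, 24.2 and 28.1 times Ccnd3. Cdk6 shares 368 bases with the noncoding Gm17590, which had 72.6, 50.3 and 104 TPM, 6.64, 3.13 and 19.8 times Cdk6.

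In the other overlapped loci the G1 gene was the higher one. Cdk4 shares its last 641 exon bases, 19.7% of its length, with Tspan31, which had 44.9, 102 and 36.9 TPM, or 0.104, 0.226 and 0.0770 times Cdk4. Ccne2 shares 609 bases, 17.4% of its length, with the Integrator subunit Ints8, which had 32.3, 31.1 and 45.7 TPM, or 0.414, 0.299 and 0.600 times Ccne2. The gene tables hold no counts per exon. Whether the fragments counted for an overlapped gene came from its own RNA or from RNA of the other strand cannot be told apart in them. Of the ratios above, only that of Cdkn1a to Cdkn1b and that of Cdkn1b to Cdkn2c are between genes with no overlap.

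**Figure D3:**
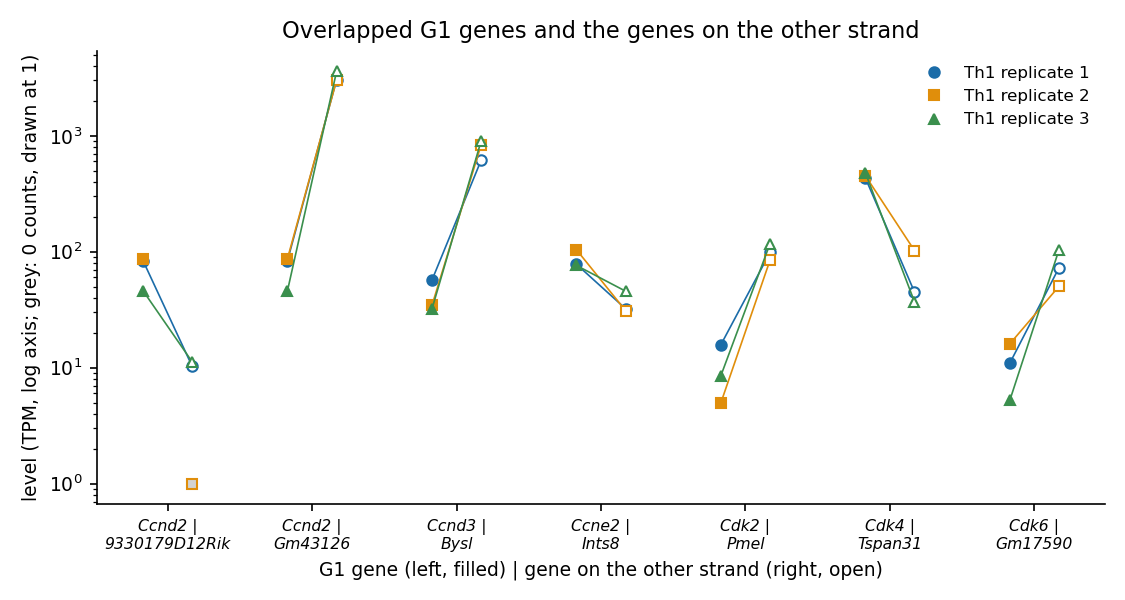
Level in TPM on a log axis of each overlapped G1 gene (left, filled) and of the gene whose exons overlap it on the other strand (right, open), joined within each Th1 library. The other-strand gene is higher for Gm43126, Bysl, Pmel and Gm17590 and lower for 9330179D12Rik, Ints8 and Tspan31; the grey symbol marks 0 counts, drawn at 1 TPM.

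The replicate libraries were then set against each other with a chi-square test on counts scaled by TMM (the trimmed mean of M values of edgeR), run on the 11595 genes with a mean count of at least 10. It compares libraries, not conditions, and holds counting error only. A gene was called at a Benjamini-Hochberg adjusted p under 0.05 with at least a 2-fold ratio of the highest to the lowest library. Of the 10 G1 genes 3 were called, against 29.5% of all genes tested, a share near that background. Of the 10 genes, 2 were called and highest in replicate 2, against 10.5% of all genes tested. In the same way 1 of the 10 was called and highest in replicate 1, against 6.99%. The 10 genes' median ratio was 1.66, against 1.70 over all genes tested.

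Ccne1 had the highest ratio, 3.40 between replicates 2 and 3 (chi-square test, adjusted p = 2.91e-10), with 54.2, 133 and 39.2 CPM (a TMM-scaled share of the library's counts, not scaled by gene length) in replicates 1, 2 and 3. Cdk2 had a ratio of 3.10 between replicates 1 and 2 (chi-square test, adjusted p = 0.0117), where replicate 2 held 4 counts. Its call ended when any 1 library was left out. The ratio was 2.32 without replicate 1 (chi-square test, adjusted p = 0.192), 1.23 without replicate 2 (chi-square test, adjusted p = 0.166) and 3.10 without replicate 3 (chi-square test, adjusted p = 0.0818). Cdk6 had a ratio of 2.26 between replicates 2 and 3 (chi-square test, adjusted p = 1.20e-05), and 1.499 without replicate 3 (chi-square test, adjusted p = 0.126). Each of the 3 calls had replicate 2 at 1 end, and without that library 0 of the 10 genes were called, against 14.9% of 12257 genes. Ccne1 then had a ratio of 1.28 (chi-square test, adjusted p = 0.0597) and Cdk6 1.39 (chi-square test, adjusted p = 0.00311).

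The count depended on the setting. Without replicate 1, 2 of the 10 genes were called, against 18.0% of all genes, and without replicate 3, 1 was, against 11.8%. On genes without overlap 1 of 4 was called, Ccne1, against 15.5%, and without replicate 2 in addition 0 of 4, against 5.15%. Scaling by library totals called 5, adding Cdkn1b and Cdkn2c, against 32.1%. The 3 calls stood with DESeq2 size factors (29.1% of all genes), with no filter on low counts (18.3%) and with an expected count of at least 5 in every library, where 9 of the 10 were tested (36.1%). At a ratio of at least 1.5, 5 of the 10 genes were called, Ccnd3 and Cdk4 being added, against 44.7% of all genes.

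By the adjusted p alone, 8 of the 10 genes passed, against 55.5% of all genes, and 5 without replicate 2, against 36.9%. Cdkn1b (chi-square test, adjusted p = 0.247) and Cdkn2c (chi-square test, adjusted p = 0.156) were those that did not pass with 3 libraries, on 10 and 7 counts in replicate 2. Cdkn1a had a ratio of 1.23, the smallest of the 10 genes, with 259, 210.3 and 219 CPM.

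Cdk4 was the 1 of the 10 genes that was highest in replicate 3, at 957 CPM there against 623 in replicate 1 and 666 in replicate 2 (ratio 1.54; chi-square test, adjusted p = 1.88e-62). Without replicate 2 its ratio was 1.67, and with 3 libraries it did not reach the 2-fold minimum. Ccne2, also overlapped, had 163 CPM in replicate 3, against 121 in replicate 1 and 165 in replicate 2. Without replicate 2 it too was highest in replicate 3, with a ratio of 1.47 (chi-square test, adjusted p = 1.01e-09). Among all genes tested, 26.8% of the overlapped ones were called and highest in replicate 3, against 2.00% of those without overlap. The part of the overlap in the higher level of Cdk4 in that library was not tested. In TPM, 8 of the 10 genes were lowest in replicate 3, where overlapped genes took 66.5% of the counts. The share of all genes lowest there in TPM was not computed. The summed TPM of every pathway list below was also lowest in replicate 3, that of the S phase genes being 1057, 921 and 625 in replicates 1, 2 and 3. With TPM set over genes without overlap 5 of the 10 were lowest there, namely Ccnd2, Ccne1, Cdk6, Cdkn1b and Cdkn2c. The same genes were lowest there in TMM-scaled CPM. So were 40.3% of all tested genes without overlap and 17.5% of the overlapped ones. Cdkn1a then had 670, 565 and 643 in replicates 1, 2 and 3, lowest in replicate 2.

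**Figure D4:**
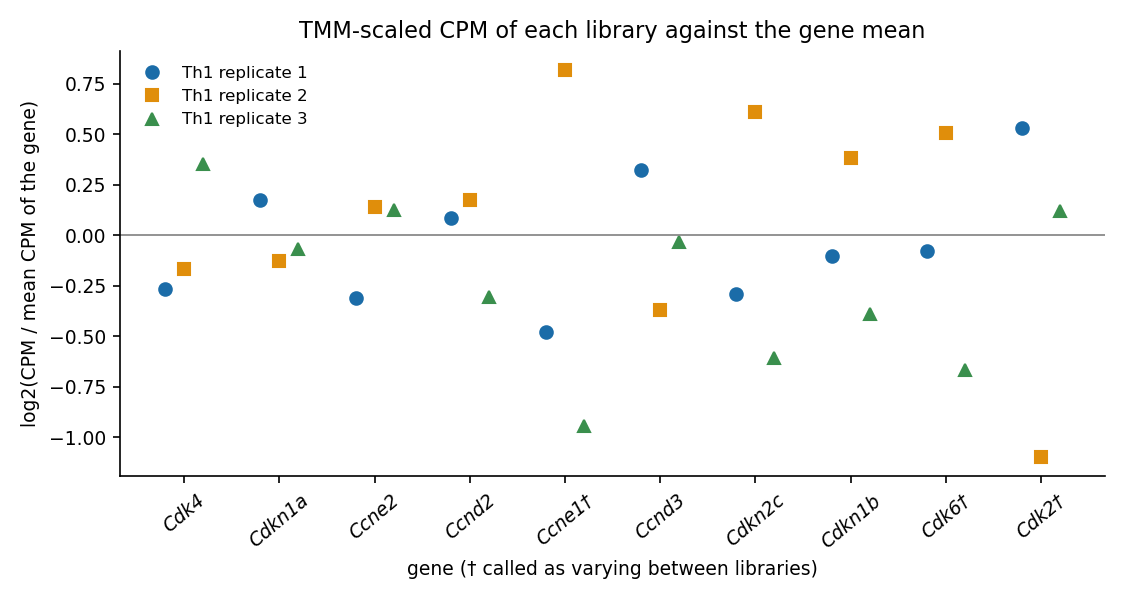
Log2 of the TMM-scaled CPM of each Th1 library over the mean of the gene, with the 3 genes called as varying marked by a dagger. Replicate 2 lies at an end for Ccne1, Cdk6 and Cdk2, and Cdk4 is the gene with its highest value in replicate 3.

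Other genes of the pathway were read from lists by role. Of the close relatives, the INK4 genes Cdkn2a and Cdkn2b had 0 counts in each library, which allows up to 3 counts, or 0.669, 11.2 and 0.804 unscaled CPM in replicates 1, 2 and 3. Cdkn1c (overlapped) had 2, 0 and 0 counts. Cdkn2d, which encodes the INK4 protein p19, had 55.8 ± 16.0 TPM from 230, 12 and 123 counts. It lay above Cdkn2c, at 69.9, 59.0 and 38.4 TPM against 11.0, 20.2 and 6.40 TPM in replicates 1, 2 and 3, and neither gene was overlapped.

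All 7 genes that activate or fold the kinases reached 1 TPM, with a median of 19.0 TPM. Cdc37, the cochaperone that hands Cdk4 to the Hsp90 chaperone, led at 60.2 ± 19.4 TPM, and the phosphatase Cdc25a had 19.3 ± 6.65. Of the kinases that hold cyclin-dependent kinases inactive, Pkmyt1 (overlapped) had 54.9 ± 4.30 TPM and Wee1 9.58 ± 1.52. Of the 5 genes for turnover of inhibitors and cyclin E, Cks1b led at 132 ± 44.5 TPM. Skp2, the receptor with which Cks1b marks p27 for destruction, had 2.51 ± 1.80 TPM from 74, 1 and 33 counts. Fbxw7, the receptor for cyclin E, had 9.02 ± 3.87 TPM from 152, 11 and 67 counts. In these 3 lists the chi-square test called 0 of 14 genes as varying between libraries, against 29.5% of all genes, and 6 passed by the adjusted p alone, against 55.5%.

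All 7 genes of the retinoblastoma and E2F list reached 1 TPM, with a median of 17.0 TPM. The repressor E2f4 was highest at 91.4 ± 42.7 TPM, and the activators E2f1, E2f2 and E2f3 had 7.91 ± 3.99, 17.0 ± 4.61 and 6.05 ± 5.51. In the shallow replicate 2, E2f1, E2f2 and E2f3 held 2, 11 and 0 counts, so their SDs include much counting error. Rb1 (overlapped) had 23.9 ± 9.37 TPM. Of these 7, Rbl2 (overlapped) was called and was highest in replicate 2. Later cyclins were led by Ccna2 (overlapped) at 204 ± 49.5 TPM, and Cdk1, the mitotic kinase, had 56.4 ± 14.1. Of these 4 genes the mitotic cyclin Ccnb1 was called and was highest in replicate 1.

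Regulators of the G1 genes were also counted. Trp53, which drives Cdkn1a, had 33.8 ± 11.7 TPM and its target Mdm2 47.7 ± 14.5, while Foxo1 (overlapped) and Foxo3, which drive Cdkn1b, had 10.5 ± 5.32 and 7.19 ± 3.24. Of this list of 5, Foxo1 was called and was highest in replicate 2. All 10 S phase genes reached 10 TPM, with a median of 77.2 TPM, led by the replication clamp Pcna at 165 ± 62.4 and the ribonucleotide reductase subunit Rrm2 at 153 ± 60.6. Of these, the replication licensing factor Cdc6 was called and was highest in replicate 1. Over all the lists 4 of 42 genes tested were called, against 29.5% of all genes. Without replicate 2, 1 was, Ccnd1, on 28 and 40 counts in replicates 1 and 3, against 14.9% of all genes.

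**Figure D5:**
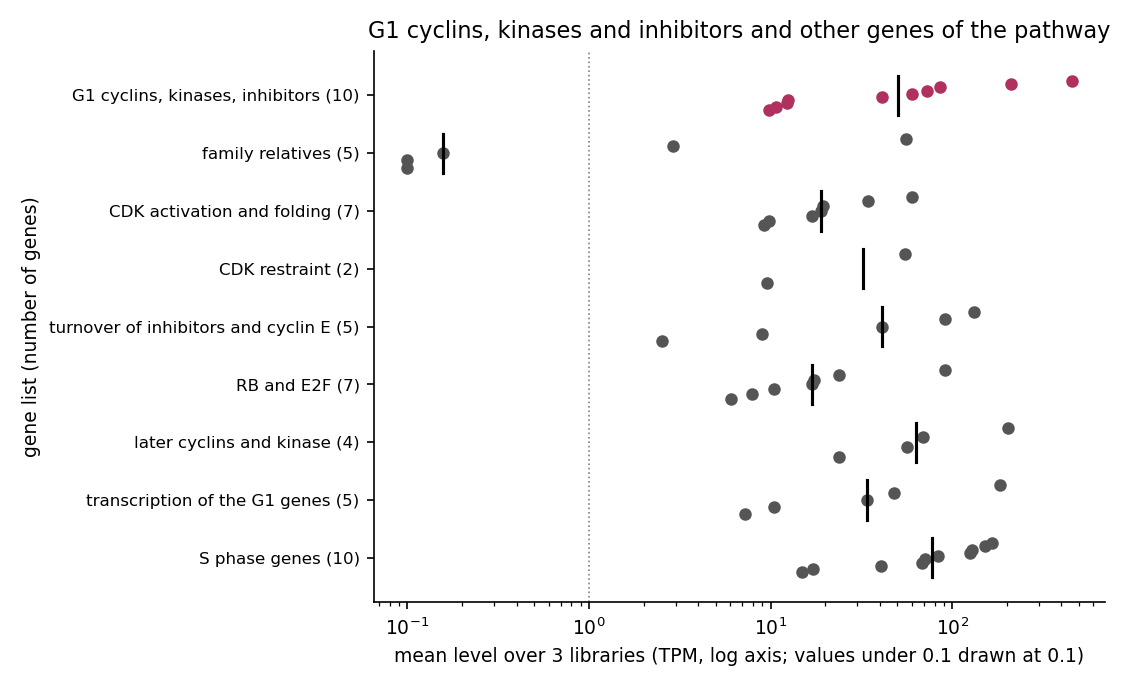
Mean level over the 3 Th1 libraries in TPM on a log axis for the 10 G1 genes (red) and for the genes of each list (grey), with the median of each as a black bar and 1 TPM as a dotted line. The close relatives lie mostly under 1 TPM apart from Ccnd1 and Cdkn2d, and all genes of the other lists lie above it.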

How the data were processed

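Each library had 1 file of whole-number counts per gene, which the authors made with featureCounts 1.4.6-p4 on GENCODE mouse release 13 with strand setting 1, per the file headers. The labels give mm10. The aligner is not named in the sources used here, and 0 value columns were left unused. Symbols were joined by gene identifier from GENCODE mouse release 21 (GRCm38), which held 50376 of the 50600 genes.

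TPM was computed from the deposited counts and exon lengths, and means have the sample SD. Poisson intervals of levels and Clopper-Pearson intervals of folds are at 95% and cover counting error only, since PCR copies are not independent molecules. The chi-square test was used since the quasi-likelihood test of edgeR needs a second group. It took TMM factors from edgeR 4.0.16, and for the ratio a lowest library under 3 counts was raised to 3. The test holds counting error only. Its script was tested on simulated counts that held counting error alone, with changes placed in replicate 3. That simulation does not test calls that turn on the shallow replicate 2. Between pairs of libraries the chi-square value per gene was 5.27 to 29.6, so none was a duplicate. DESeq2 1.42.0 gave the alternative size factors.

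A gene was marked overlapped when its exons shared any base with exons on the opposite strand. Of the 50-base words of a G1 gene's transcripts, at most 2.14% (Cdkn1a) occurred in another gene. Genes are named by rule, namely the 10 G1 genes, those overlapping them, and the pathway and cell type marker lists. All were chosen with earlier results of these data known. RefSeq promoter entries matched 8 of the 10 genes.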

Additional observations from a re-analysis of the deposited data

How the results depend on the processing

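The choices were planned, apart from leaving out overlapped genes and replicate 2 together. Counts without length scaling gave log2 ratios of 3.42 for Cdk4 over Cdk6, 4.65 for Cdk4 over Cdk2, 3.08 for Cdkn1a over Cdkn1b, 0.77 for Cdkn1b over Cdkn2c and -1.62 for inhibitors over kinases. They turned D over E cyclins round, to 1.19. These shifts follow from the gene lengths, since TPM divides by them. Leaving out 1 replicate moved Cdkn1b over Cdkn2c between -0.040 (without replicate 3; -0.031 without replicate 1) and 0.16 (without replicate 2); the cause was not tested. A pseudocount of 0.1, or TPM over genes without overlap, kept the sign of all 9 ratios, each within 1 SD. Neither choice can turn round a ratio within a library. The latter scales all genes of a library alike, so it does not test the part of the overlap in these ratios. TPM over genes without overlap raised every level, since it divides by fewer genes.

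Of the G1 genes, 3 were called as varying between libraries. The count was 5 with library totals and 5 at a ratio of 1.5, 1 on genes without overlap, 0 there without replicate 2, and 0 to 2 when 1 replicate was left out. Ccne1 was called without replicate 1 and without replicate 3, Cdk6 without replicate 1, and Cdk2 in no such repeat. Over all genes the count of 3415 was 5180 at a ratio of 1.5, 1074 on genes without overlap, 382 there without replicate 2, and 1332 to 1941 when 1 replicate was left out. With DESeq2 size factors, no filter on low counts, or an expected count of at least 5 in every library, the same 3 G1 genes were called. No paired analysis was possible because the samples form 1 group. Depth limits replicate 2, where Cdk2 had 4 counts, Cdkn2c 7 and Cdkn1b 10.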
